A study of Mus musculus with 18 samples.

Results

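The comparison described here is the effect of the guide RNA in mouse CD8+ T cells, pooled over 3 doses of the bile acid lithocholic acid (LCA). All 18 samples of the series entered it. The 9 samples given a CRISPR guide kit against Nur77 (labelled KO) were set against 9 given a scrambled guide (labelled WT), with LCA dose as a block. In all of them naive CD8+ T cells were isolated, received a CRISPR ribonucleoprotein with their guide, were activated through CD3 and CD28 and were kept overnight in 0, 10 or 50 µM LCA, with 3 samples for each guide and dose. Nur77-guide cells are a treated population, not a clone or a germline knockout. Nothing in the labels gives the guide sequences, the share of edited alleles, or the age or strain of the mice. Whether the 3 samples of a group, or the 3 doses of a guide, came from separate cultures, animals or guide deliveries is not stated either, so p-values reflect only how these samples vary, which may be technical variation, and the 9 samples of a guide may share a single delivery.

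Nur77, encoded by Nr4a1, is an orphan nuclear receptor that T cells induce within hours of antigen receptor signalling, together with its relatives Nr4a2 and Nr4a3. It binds DNA as a monomer at an element called NBRE and is known for restraining T cell activation and metabolism and for a role in tolerance and exhaustion. Lithocholic acid is a product of bacterial metabolism of bile acids in the gut. Gene levels are given below as CPM, counts scaled to library size, and guide differences as log2 fold changes of Nur77 guide over scrambled guide ± standard error. A gene was called where edgeR's quasi-likelihood test gave a Benjamini-Hochberg adjusted p under 0.05 over all 11651 genes tested, of 24537 in the table.

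Total counts ran from 4340061 to 5170646 in the scrambled-guide samples and from 4113713 to 5945518 in the Nur77-guide samples. On the second principal component, with 11.38% of the variance, scrambled-guide samples lay between 8.113 and 16.28 and Nur77-guide samples between -16.79 and -10.16. Background, read from olfactory, vomeronasal and trace amine receptor genes under the count filter, had a median of 91.3 CPM with the scrambled guide and 93.4 CPM with the Nur77 guide. The ranges were 50.4 to 224 CPM and 47.8 to 166 CPM. At 50 µM background was 122, 140 and 224 CPM with the scrambled guide and 166, 47.8 and 93.4 CPM with the Nur77 guide. Replicate 1 of the Nur77 guide at 50 µM stood farthest out on the first component (41.94, with 18.95% of the variance), and results that move without it are given with that value. T cell identity was plain in every sample: Cd3e lay between 358 and 485 CPM and Cd8b1 between 476 and 814 CPM. Of markers of CD4 and regulatory T cells, Cd4 reached at most 1.28 CPM, but others had counts in every sample. Foxp3 lay at 9.36 to 18.8 CPM with the scrambled guide and 9.14 to 14.5 CPM with the Nur77 guide. For Zbtb7b these ranges were 0.195 to 6.52 CPM and 3.76 to 19.9 CPM.

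The targeted transcript itself did not differ between the guides beyond the spread of the samples. Without LCA, Nr4a1 had 55, 58 and 29 counts with the scrambled guide and 61, 41 and 71 counts with the Nur77 guide. At 10 µM the scrambled-guide samples had 43, 82 and 43 counts and the Nur77-guide samples 48, 47 and 48 counts. At 50 µM they had 84, 74 and 35 counts against 66, 38 and 36 counts. The 2 guides overlapped at every dose, and the pooled log2 fold change of Nr4a1 was -0.16 ± 0.19 (adjusted p = 0.785). Counts over a whole gene do not read a small insertion or deletion at a cut site, so they check neither the editing nor the protein. The gene lies on chromosome 15 (GRCm38.p6, 101253902 to 101274795). Of its relatives, Nr4a2 had a log2 fold change of 0.05 ± 0.15 (adjusted p = 0.941) and Nr4a3 one of 0.43 ± 0.19 (adjusted p = 0.24). Among 26 tested genes within 1 Mb of Nr4a1, none was called higher and only Itgb7, 941.2 kb away, was called lower (-0.17 ± 0.04, adjusted p = 0.00826). Their median log2 fold change was -0.01. Of 16 tested partners and reported interactors of Nur77, 0 were called by edgeR or DESeq2 and 3 had an unadjusted p under 0.05. Here and in the lists below, the share of all tested genes at this unadjusted threshold is not given. Unadjusted list counts are therefore not read as a result about a list.

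Pooled over the doses, 581 genes were called. Of the genes tested, 378 were higher with the Nur77 guide (3.24%) and 203 lower (1.74%). In 576 of the called genes the sign was the same at all 3 doses. Most differences were small: 33 genes were at least 2-fold higher and 33 at least 2-fold lower. A stricter class asked that a called gene have the same sign at each dose and that, at each dose, all 3 Nur77-guide samples lie beyond all 3 scrambled-guide samples. This held for 167 genes, 111 higher (0.953% of those tested) and 56 lower (0.481%). They are described here as apart at every dose. In 44 of the higher and 17 of the lower, all 9 samples of a guide lay beyond all 9 of the other, although the doses differ. Of the remaining called genes, 270 were apart at 2 doses, 130 at 1 dose and 14 at none. Being apart at a single dose was common: with each dose taken alone, 16.05%, 14.31% and 16.23% of all tested genes were apart in either direction at 0, 10 and 50 µM. Among all tested genes, 150 were apart in opposite directions at 2 doses.

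Single doses were first tested within a fit of all 18 samples, which share an estimate of the spread. In it 73 genes were called without LCA (0.627%), 77 at 10 µM (0.661%) and 226 at 50 µM (1.94%). With the 6 samples of each dose fitted alone, 211, 128 and 52 genes were called at 0, 10 and 50 µM. The order of the doses thus depended on the fit. In the shared fit 28 genes (0.24%) were called at every dose, 27 of which were also apart at every dose. The 18 higher were Adam8, Axl, Bhlhe40, Ctla2a, H2-Q10, Id2, Il12rb2, Il24, Il7r, Lilr4b, Ltb4r1, Maged2, P4ha2, Pak6, Pcdhgc3, Themis, Ttc39c and Upp1. The 10 lower were Amica1, Cd6, Ctss, Dapl1, Klrc1, Lrrc32, Lyz2, Prkch, Rgcc and Spry1. This count depended on single samples: it was 14 without replicate 2 of the Nur77 guide at 0 µM, 17 without replicate 1 of the scrambled guide at 0 µM, and 63 without replicate 1 of the Nur77 guide at 50 µM.

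The cytokine receptor gene Il7r and the cytokine gene Il24 were among the genes that rose and were apart at every dose. Il7r encodes the alpha chain of the interleukin-7 receptor that supports naive and memory T cells (chromosome 15, 9506159 to 9529941). It had a lowest, median and highest level of 34.1, 51.8 and 70.3 CPM in the scrambled-guide samples. With the Nur77 guide these were 82.5, 121 and 142 CPM. No sample of a guide reached the other guide's range at any dose, and the pooled log2 fold change of Il7r was 1.19 ± 0.07 (adjusted p = 1.23e-15). Il24, a cytokine of the interleukin-10 family (chromosome 1, 130882074 to 130887411), went from 4.64, 6.27 and 10.6 CPM to 12.8, 21 and 40.4 CPM. The Il24 ranges again did not touch, with a log2 fold change of 1.84 ± 0.13 (adjusted p = 1.37e-12). Both signalling chains of the interleukin-12 receptor were apart at every dose, Il12rb2 at 0.41 ± 0.04 and Il12rb1 at 0.19 ± 0.04. So was Ebi3, a subunit of heterodimeric cytokines, at 0.77 ± 0.15. Il4ra, the interleukin-4 receptor chain, rose by 0.24 ± 0.04.

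Among surface and migration genes, Ly6c1, a Ly6 protein of memory and effector CD8+ T cells, had the largest log2 fold change of the genes apart at every dose. It lay at 0.402, 2.22 and 4.65 CPM with the scrambled guide and at 2.86, 9.68 and 12.7 CPM with the Nur77 guide. The groups separated within each dose but not over all doses together, and the log2 fold change of Ly6c1 was 1.95 ± 0.25 (adjusted p = 7.92e-07). Ltb4r1, the receptor for the chemoattractant leukotriene B4, lay at 10.3, 14.8 and 17.4 CPM against 22.7, 31.1 and 36.6 CPM. All 9 Nur77-guide samples were above all 9 others for Ltb4r1 (1.10 ± 0.10, adjusted p = 5.89e-10). In the opposite direction, Alox5, the lipoxygenase that starts leukotriene synthesis, fell by 1.03 ± 0.22 on the log2 scale (adjusted p = 0.00222). Cxcr5, the receptor for CXCL13, rose by 1.38 ± 0.25 (adjusted p = 0.000692). Of 21 tested chemokine and homing receptors, 4 were higher, among them Ccr2, Cxcr5 and Itgb1, and 2 lower (Itgb7 and Itgae), beside 3.24% and 1.74% of all tested genes. Ccr2 was not apart at every dose, and Itgb1 lost its call without any of 7 single samples. Without a dose term 1 member of this list was higher and 0 were lower.

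Upp1 and Tgm2, which both encode enzymes, were also among the 15 highest. Upp1, the uridine phosphorylase that splits uridine into uracil and ribose phosphate (chromosome 11, 9118008 to 9136170), lay at 20.3, 26.9 and 34.6 CPM with the scrambled guide. With the Nur77 guide Upp1 lay at 54.1, 67.7 and 78.1 CPM, a log2 fold change of 1.35 ± 0.08 (adjusted p = 2.95e-15). Every Nur77-guide sample was above every scrambled-guide sample. Tgm2, a protein cross-linking transglutaminase, rose by 1.16 ± 0.14 and Gstt1, a glutathione transferase, by 1.15 ± 0.16. Other genes of redox or iron handling that were apart and higher at every dose were Srxn1 (0.57 ± 0.12), Glrx (0.38 ± 0.06) and the ferritin heavy chain Fth1 (0.26 ± 0.04). These last 3 were picked out after their values were seen. The remaining genes of the 15 highest were Nlrp6 (1.47), Alpk2 (1.28), Piwil2 (1.19), Cntn1 (1.12), Anxa1 (1.10), P4ha2 (1.03) and Ston2 (1.03), all as log2 fold changes.

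Dapl1, Spry1 and Id3 were among the genes that fell. Their lists went in both directions: of genes of naive and memory state 4 of 28 were higher and 5 lower, and of genes induced through the T cell receptor 5 of 34 were higher and 6 lower, with the members named further on. Dapl1, a marker of naive and memory CD8+ T cells (chromosome 2, 59484653 to 59505020), lay at 15.8, 35.5 and 57.6 CPM with the scrambled guide and at 6.91, 13.8 and 18.8 CPM with the Nur77 guide. The Dapl1 ranges overlapped across doses but not within any dose, and its log2 fold change was -1.40 ± 0.12 (adjusted p = 1.31e-10). Spry1, an inhibitor of growth factor and antigen receptor signalling (chromosome 3, 37639947 to 37644599), lay at 10.1, 17.8 and 23.7 CPM against 4.15, 7.15 and 11.4 CPM. Spry1 fell by 1.22 ± 0.13 on the log2 scale (adjusted p = 4.66e-08). Id3, an inhibitor of E protein transcription factors linked with memory precursors, went from 86.1, 92 and 122 CPM to 36, 57.9 and 75.1 CPM. Its relative Id2, linked with effector cells, moved the other way, from 305, 363 and 403 CPM to 428, 490 and 629 CPM. For both genes all 9 samples of a guide lay beyond the other 9, with log2 fold changes of -0.74 ± 0.11 for Id3 (adjusted p = 0.000176) and 0.50 ± 0.05 for Id2 (adjusted p = 1.38e-08).

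Other genes apart and lower at every dose were Rgcc, a regulator of the cell cycle (-0.96 ± 0.08, adjusted p = 3.34e-11), and Klrc1, the inhibitory receptor NKG2A (-0.79 ± 0.09, adjusted p = 7.96e-08). Lrrc32, the docking receptor for latent TGF-beta, fell by 0.84 ± 0.09 on the log2 scale. Hsd11b1, which regenerates active glucocorticoid, fell by 0.87 ± 0.11. Pdcd1, the inhibitory receptor PD-1, lay at 41.9, 50.8 and 72.9 CPM with the scrambled guide and at 19.3, 38 and 45 CPM with the Nur77 guide, and fell by 0.55 ± 0.11 (adjusted p = 0.00105). Cd8a, the alpha chain of the CD8 coreceptor, was lower in all 9 Nur77-guide samples, at 499, 530 and 570 CPM against 576, 631 and 666 CPM. Its log2 fold change was -0.23 ± 0.03 (adjusted p = 1.07e-05), the only call among 9 tested CD8 T cell markers. The rest of the 15 lowest were Drc1 (-1.14), Slc14a1 (-1.09), Itih5 (-1.09), Pygm (-0.94), Itgae (-0.84), H2-Aa (-0.81) and Nsg2 (-0.79), with Lyz2 described below.

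**Figure D1:**
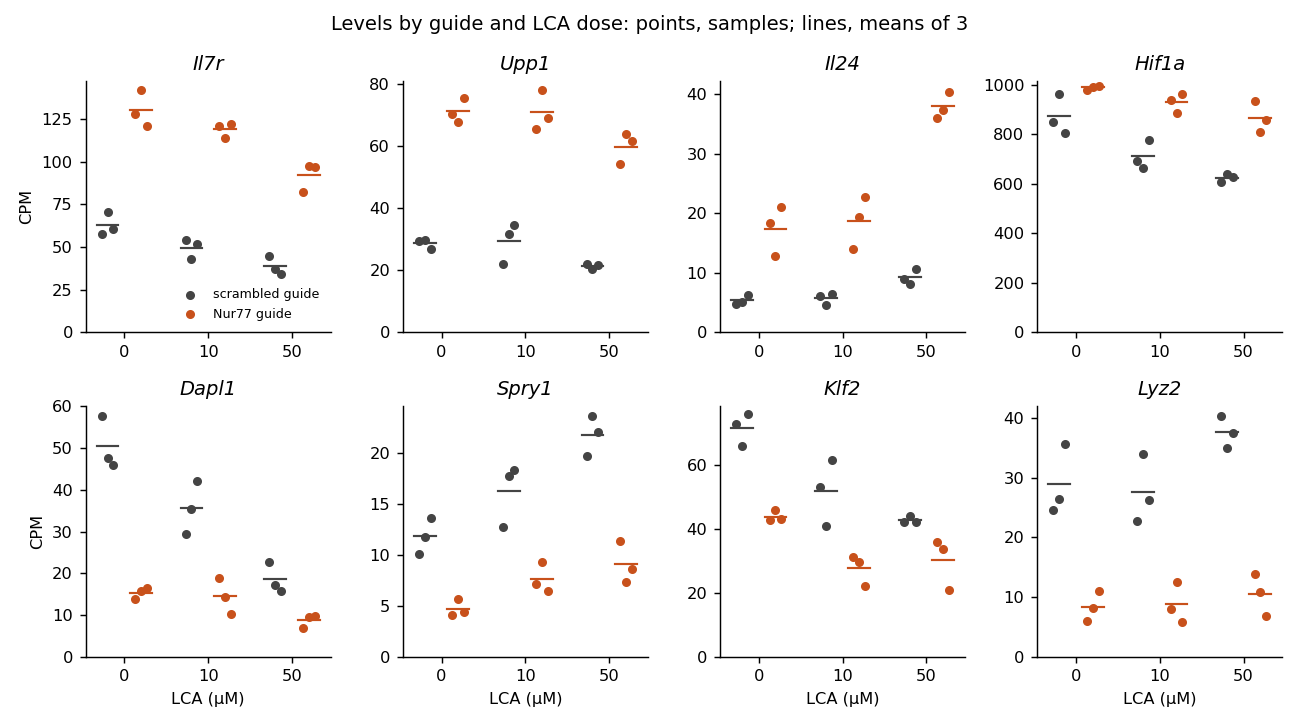
Levels in CPM (linear axis from 0) against LCA dose in µM for 8 genes; each point is a sample, each line the mean of 3 samples, dark for the scrambled guide and orange for the Nur77 guide. Il7r, Upp1, Il24 and Hif1a lie higher and Dapl1, Spry1, Klf2 and Lyz2 lower with the Nur77 guide, with no overlap at any dose.

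By dose, the genes apart at every dose, which had to share a sign at each, differed by guide as follows. The 111 higher genes had a median log2 fold change of 0.56 without LCA, 0.54 at 10 µM and 0.69 at 50 µM. Medians of the 56 lower genes were -0.53, -0.57 and -0.58. Il7r, for example, differed by 1.05, 1.26 and 1.26 at 0, 10 and 50 µM, and Upp1 by 1.31, 1.27 and 1.49. Dapl1 differed by -1.71, -1.31 and -1.08. The genes farthest from equal difference at 0 and 10 µM had few counts. Slamf8 (mean 1.18 CPM) had 28 counts over the 3 scrambled-guide samples at 10 µM and 0 over the 3 Nur77-guide samples. Set against a floor of 3 counts over the group, Slamf8 was 8.87-fold lower, a bound that leaves out the counting error of the 28. With Slamf8 at that bound, the median of the lower genes at 10 µM was still -0.57. Serpinb9b (mean 1.93 CPM) had 2 counts over the scrambled-guide and 28 over the Nur77-guide samples without LCA, a ratio of 12.7 (exact 95% binomial interval 3.21 to 110, for counting error only), and a log2 fold change of 1.02 at 10 µM. Over all 11651 genes, guide differences at any 2 doses, which share no sample, had Pearson's r of 0.2975 (0 and 10 µM), 0.2791 (0 and 50 µM) and 0.2569 (10 and 50 µM). These are correlations across genes, which are not independent replicates.

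**Figure D2:**
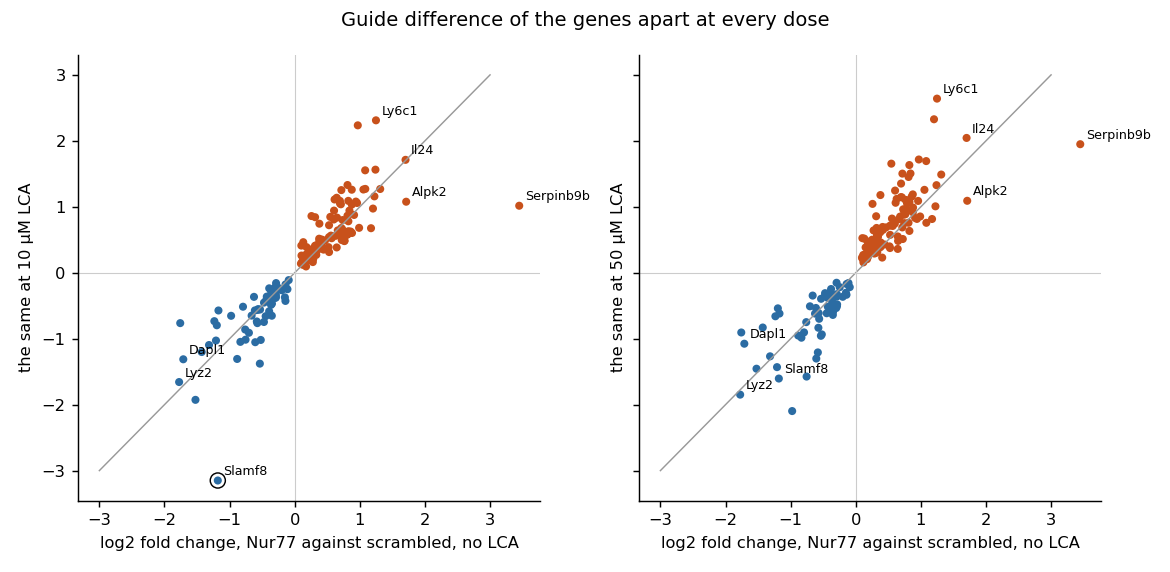
Log2 fold change of Nur77 guide over scrambled guide without LCA (horizontal) against the same at 10 µM (left) and 50 µM LCA (right) for the 167 genes apart at every dose; each point is a gene, orange higher and blue lower, and the line marks equal difference. Medians of the higher genes were 0.56, 0.54 and 0.69 at 0, 10 and 50 µM, and the low-count genes Slamf8 and Serpinb9b lie farthest from the line on the left, where the circle marks that Slamf8 is drawn at its bound of -3.15.

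Because the class was defined at all 3 doses, its agreement across doses is no test. Genes were therefore called at 2 doses (12 samples) and read in the 6 samples of the dose left out. The doses of a guide may share a single delivery, so this reading does not check the difference in separately treated cells. Called without the 0 µM samples were 292 genes (2.56%), without the 10 µM samples 354 (3.09%) and without the 50 µM samples 469 (4.15%). Of 285 such genes measured at 0 µM, 278 had the same sign there (97.54%), against 58.8% of genes not called. At 10 µM 322 of 342 did (94.15%, against 56.62%), and at 50 µM 410 of 459 (89.32%, against 53.98%). The 3 samples of each guide lay apart in the same direction for 72.63%, 57.31% and 46.41% of these genes at 0, 10 and 50 µM. Of all tested genes, 16.05%, 14.31% and 16.23% were apart in either direction. With the held-out samples fitted alone, 108, 90 and 43 of the genes were called in the same direction, and 0 in the opposite one by edgeR. At an unadjusted p under 0.05, 203, 230 and 232 had the same direction and 0, 1 and 1 the opposite one. DESeq2 was not run on the held-out samples. Held-out differences had a median of 0.7277, 0.7467 and 0.8795 of the size at the doses that chose the genes.

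**Figure D3:**
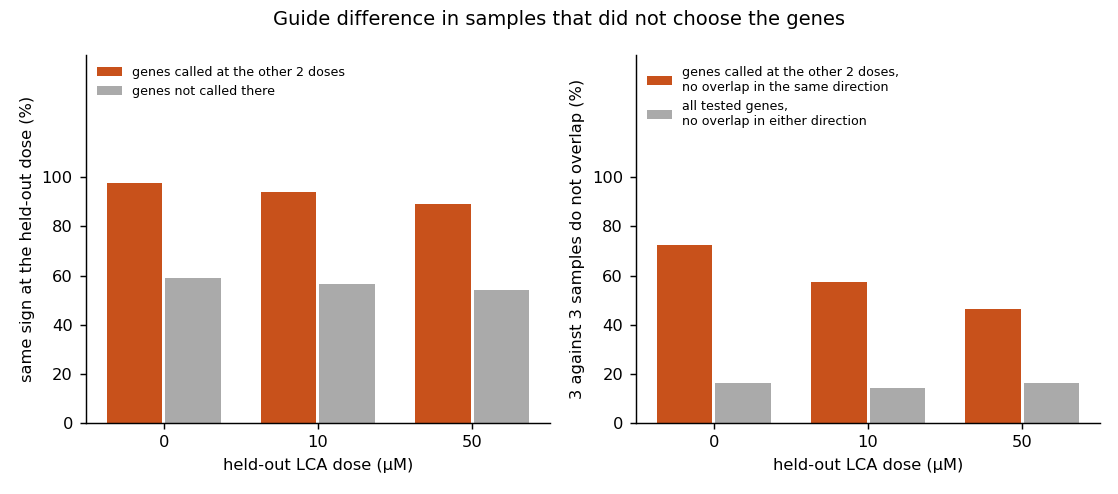
Percent of genes (vertical) at each held-out LCA dose in µM (horizontal): left, same sign of the guide difference as at the other 2 doses, for genes called there (orange) and not called (grey); right, no overlap of 3 against 3 samples, for the called genes in the same direction (orange) and for all tested genes in either direction (grey). The orange bars are 97.54, 94.15 and 89.32% on the left and 72.63, 57.31 and 46.41% on the right, each above its grey bar.

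Difference of the guide effect between doses was tested as an interaction, and edgeR called 0 genes. At an unadjusted p under 0.05 there were 654 of the 11651 tested genes, among them 37 of the 581 called and 9 of the 167 apart. These shares are similar, so the unadjusted counts show nothing particular to the called or the apart genes. DESeq2's likelihood ratio test called 2, Cox7a2, a subunit of cytochrome oxidase, and Thbs1, thrombospondin 1. Thbs1 differed by guide by -0.93, 0.75 and 1.68 at 0, 10 and 50 µM, and Cox7a2 by -0.15, -0.27 and 0.33; neither was called in the pooled comparison. Without replicate 1 of the Nur77 guide at 50 µM, edgeR called 8 genes for the interaction: Ly6a, Cox7a2, S100a10, Ifitm1, Ifitm2, Thbs1, Ifit1bl1 and Gpt2. Ifitm2 is among the genes apart at every dose, all in the higher direction. A p that misses the threshold does not show that the guide effect is equal at the 3 doses.

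LCA itself moved more genes than the guide did. In the same additive fit, 1907 genes (16.4%) were called for 50 µM LCA against none, over both guides. Several genes that differ by guide also changed with dose. Il7r, higher with the Nur77 guide, fell by 0.59 ± 0.08 on the log2 scale at 50 µM LCA. Il24 rose with both, by 1.00 ± 0.16 with LCA. Dapl1 and Klf2 were lower with both, with LCA differences of -1.18 ± 0.15 and -0.65 ± 0.11. Spry1 fell with the guide and rose with LCA (0.91 ± 0.17), so that Nur77-guide samples at 50 µM had a mean of 9.14 ± 2.10 CPM (SD, n = 3) and scrambled-guide samples without LCA one of 11.8 ± 1.72 CPM. Id3 differed by guide and had a log2 fold change of -0.07 ± 0.14 with LCA (adjusted p = 0.79).

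Of the 36 gene lists examined, the hypoxia response had the largest share of members called. Many genes of this list can be transcribed through HIF-1, whose alpha subunit is encoded by Hif1a and is degraded when oxygen-dependent hydroxylases mark it. HIF-1 protein and activity were not measured. The list includes Hif1a itself, which is also in the list of effector factors, and Ddit4, which is also in that of ATF4 targets. Of 19 tested members 13 were higher and 0 lower, beside 3.24% and 1.74% of all genes, and 6 were apart at every dose. The same 3.24% higher and 1.74% lower are the background of every list count that follows. Their median log2 fold change was 0.22, against -0.00294 for all tested genes. Hif1a lay at 606, 692 and 965 CPM with the scrambled guide and at 808, 939 and 996 CPM with the Nur77 guide. It was apart within each dose, by 0.18, 0.39 and 0.47 on the log2 scale at 0, 10 and 50 µM, with a pooled log2 fold change of 0.35 ± 0.04 (adjusted p = 1.05e-06). Its antagonists rose as well: Egln1 by 0.18 ± 0.04 and Egln3 by 0.27 ± 0.06, both prolyl hydroxylases that act on HIF proteins.

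P4ha2, a collagen prolyl 4-hydroxylase subunit (chromosome 11, 54100924 to 54131668), was the member that differed most. P4ha2 lay at 9.47, 13.8 and 18 CPM with the scrambled guide and at 18, 28.8 and 37.1 CPM with the Nur77 guide, a log2 fold change of 1.03 ± 0.12 (adjusted p = 2.86e-07). Ero1l, the oxidase that drives disulfide formation in the endoplasmic reticulum, went from 187, 228 and 256 CPM to 274, 293 and 487 CPM (0.46 ± 0.09, adjusted p = 0.00295). Bnip3, a mitophagy receptor, lay at 164, 180 and 184 CPM against 183, 207 and 217 CPM (0.21 ± 0.04, adjusted p = 0.00124), and Fam162a rose by 0.25 ± 0.05. P4ha2 and Ero1l separated over all 9 samples against 9 (for P4ha2 by less than the rounding of the values), and Bnip3 within each dose. The other called members were Kdm3a, Ndrg1, Mxi1, Ddit4, Bnip3l and Slc2a1, with log2 fold changes from 0.15 for Slc2a1 to 0.30 for Ndrg1. Leaving out single samples ended the call of Bnip3l (14 of 18 samples), Ddit4 (9) and Mxi1 (3). Vegfa (0.13 ± 0.11), P4ha1 (0.12 ± 0.05), Higd1a (0.14 ± 0.06), Ankrd37 (0.15 ± 0.10), Pdk1 (0.01 ± 0.04) and Car9 (-0.08 ± 0.39) were not called, except P4ha1 without replicate 3 of the Nur77 guide at 10 µM (0.16, adjusted p = 0.0496). Summed over the list, levels at 0 µM were 3250 to 3340 CPM with the scrambled guide and 3650 to 3720 CPM with the Nur77 guide. At 50 µM they were 2760 to 3000 CPM against 3460 to 3910 CPM. The count of called members was 9 without the sample of highest background of each guide at 50 µM, 6 without the 10 µM samples, and 8 without those at 0 or at 50 µM.

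Promoters of 4 of the 6 members apart at every dose are printed. Only windows that hold the letters marked below were kept, so the printed windows were chosen for a match. They come from RefSeq (GRCm38.p6), are 300 bases long around a transcript start and read 5′ to 3′ on the gene's strand. The windows of P4ha2, Bnip3 and Ero1l span the listed start of the gene, whereas that of Hif1a lies inside the listed gene (chromosome 12, 73901324 to 73947554). The capitals mark the core of the hypoxia response element to which HIF-1 binds, ACGTG, searched on both strands (CACGT on the other), where adjacent matches can overlap. P4ha2 is chr11:54100674-54100973 (plus strand), Hif1a chr12:73907617-73907916 (plus), Bnip3 chr7:138909457-138909756 (minus) and Ero1l chr14:45318523-45318822 (minus).
P4ha2: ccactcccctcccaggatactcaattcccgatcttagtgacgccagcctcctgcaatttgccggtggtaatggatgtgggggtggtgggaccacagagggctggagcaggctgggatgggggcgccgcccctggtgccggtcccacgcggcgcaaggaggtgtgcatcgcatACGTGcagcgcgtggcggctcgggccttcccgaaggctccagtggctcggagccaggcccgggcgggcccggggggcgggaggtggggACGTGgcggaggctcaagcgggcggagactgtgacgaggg
Hif1a: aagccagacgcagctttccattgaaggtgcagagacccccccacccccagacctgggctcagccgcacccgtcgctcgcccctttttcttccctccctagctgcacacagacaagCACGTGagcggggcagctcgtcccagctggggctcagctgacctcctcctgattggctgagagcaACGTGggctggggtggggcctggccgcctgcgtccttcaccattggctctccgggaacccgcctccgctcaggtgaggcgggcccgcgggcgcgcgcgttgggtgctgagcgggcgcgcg
Bnip3: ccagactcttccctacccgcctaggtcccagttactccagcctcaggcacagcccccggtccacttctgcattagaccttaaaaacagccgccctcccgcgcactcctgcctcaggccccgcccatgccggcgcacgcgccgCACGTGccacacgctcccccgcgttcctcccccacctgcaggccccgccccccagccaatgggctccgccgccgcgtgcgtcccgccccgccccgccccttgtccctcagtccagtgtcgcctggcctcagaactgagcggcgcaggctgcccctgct
Ero1l: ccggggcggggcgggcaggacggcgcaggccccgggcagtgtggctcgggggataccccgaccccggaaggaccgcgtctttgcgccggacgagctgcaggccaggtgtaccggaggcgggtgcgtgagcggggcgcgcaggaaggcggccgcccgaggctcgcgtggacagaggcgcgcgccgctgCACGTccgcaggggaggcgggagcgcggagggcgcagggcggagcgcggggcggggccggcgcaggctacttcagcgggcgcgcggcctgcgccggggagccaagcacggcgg

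These 5 letters are common: 2795 of 9338 tested genes with a RefSeq window held them (29.93%). Of hypoxia genes called higher, 10 of 11 with a window did, and of all tested hypoxia genes 15 of 17. The list was put together from genes of the hypoxia response, so its high share comes with the list and is not a result of these data. Called members did not stand out from the whole list. Among genes apart at every dose, 27 of 77 higher genes (35.06%) and 5 of 42 lower genes (11.9%) held it. These shares are not on an equal footing: a gene counted if any of its windows matched, and there were 1.455 windows per higher gene, 1.167 per lower gene and 1.269 per tested gene. The NBRE, the monomer element of Nur77, was searched as AAAGGTCA on both strands. It was in 1.189% of tested genes with a window, and in 0 of 77 higher and 0 of 42 lower genes apart at every dose. A match is a description of these windows, not a site, and no match says only that these letters are not in the window.

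Glycolysis, the pathway from glucose to lactate, had 11 of 22 tested members higher and 1 lower, with a median log2 fold change of 0.15. Single differences were small. Aldoa, an aldolase, lay at 2690, 3030 and 3190 CPM with the scrambled guide and 3090, 3420 and 3810 CPM with the Nur77 guide (0.17 ± 0.03, adjusted p = 0.000639). Pkm, pyruvate kinase, rose by 0.15 ± 0.03 and Gpi1, glucose phosphate isomerase, by 0.14 ± 0.03, and these 3 were apart at every dose. Transporters called higher were Slc2a1 (0.15 ± 0.04) and Slc2a3 (0.25 ± 0.05) for glucose and Slc16a3 (0.24 ± 0.06) for lactate. Ldha had 0.10 ± 0.03 and was not called (adjusted p = 0.084), but was without replicate 3 of the Nur77 guide at 10 µM (adjusted p = 0.0475). The muscle enolase Eno3 went the other way, from 33.6, 37.1 and 51.7 CPM to 23.7, 27.3 and 30 CPM (-0.52 ± 0.09, adjusted p = 0.000106). Slc2a1 stands in both this list and the hypoxia list. The count of glycolysis members called higher was 2 without the 10 µM samples and 7 without the 0 µM samples. Of 44 nuclear-encoded respiratory chain subunits only Ndufa4 was called, lower by 0.43 ± 0.06 on the log2 scale (adjusted p = 1.19e-05), with all 9 Nur77-guide samples below the others.

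**Figure D4:**
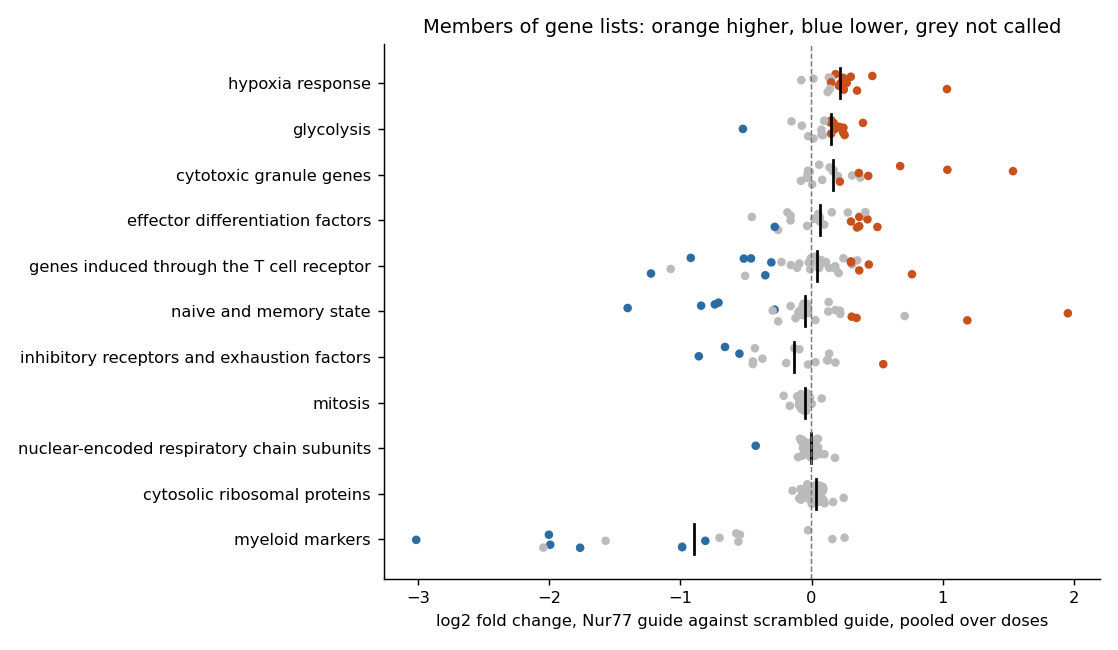
Pooled log2 fold change of Nur77 guide over scrambled guide (horizontal) for the tested members of 11 gene lists (rows, with points spread vertically for legibility); orange points were called higher, blue lower and grey not called, black bars are list medians and the dashed line is the median of all tested genes. Hypoxia has 13 of 19 members called higher and glycolysis 11 of 22, while 0 members of the mitosis and ribosome lists were called.

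Genes of naive and memory state went in both directions, with 4 of 28 higher (Il7r, Lef1, Satb1 and Ly6c1) and 5 lower (Tcf7, Klf2, Id3, Dapl1 and Itgae). Tcf7 and Lef1 encode related transcription factors of naive and memory T cells. Lef1 rose by 0.34 ± 0.07 and was apart at every dose, whereas Tcf7 fell by 0.28 ± 0.05 with overlap. Klf2, which sustains the exit and homing genes of quiescent T cells, lay at 40.8, 53 and 75.7 CPM with the scrambled guide and 20.8, 33.7 and 45.8 CPM with the Nur77 guide (-0.71 ± 0.09, adjusted p = 1.81e-06). The homing genes S1pr1 (-0.25 ± 0.09) and Ccr7 (-0.06 ± 0.04) were not called. Without replicate 1 of the Nur77 guide at 50 µM S1pr1 was called lower (-0.29, adjusted p = 0.044).

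Effector factors had 6 of 22 members higher (Tbx21, Id2, Irf4, Ikzf2, Hif1a and Bhlhe40) and 1 lower (Ikzf3, whose call was lost without any of 12 single samples). Bhlhe40, a repressor induced by activation, lay at 277, 322 and 373 CPM with the scrambled guide and at 369, 413 and 538 CPM with the Nur77 guide, a log2 fold change of 0.36 ± 0.04. Tbx21, which encodes T-bet, rose by 0.36 ± 0.08 with overlap. Of 20 cytotoxic granule genes 6 were higher and 0 lower: Gzmc, Gzmf, Srgn, Serpinb9, Serpinb6b and Cst7. Gzmf lost its call without any of 7 single samples and Cst7 without any of 5. Serpinb9, which protects the cell from its own granzyme B, was the member apart at every dose (0.43 ± 0.05). The granule count was 3 without the 0 µM samples and 3 without the 10 µM samples. Gzmb itself had 0.17 ± 0.10 (adjusted p = 0.466) over all samples, but without replicate 1 of the Nur77 guide at 50 µM it was called higher, at 0.24 (adjusted p = 9.26e-05). Prf1, perforin, had 0.16 ± 0.25 (adjusted p = 0.847).

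Genes induced through the T cell receptor had 5 of 34 higher (Batf3, Irf4, Tnfrsf9, Tnfrsf4 and Bhlhe40) and 6 lower (Nfatc1, Dusp1, Dusp4, Cd5, Spry1 and Spry2). The members that fell include feedback inhibitors: the phosphatases Dusp1 and Dusp4, the Sprouty proteins, and Cd5, a surface receptor that dampens the signal. Without single samples the call was lost for Dusp1 (12 of 18 samples) and Dusp4 (7). Cd5 fell by 0.46 ± 0.07 on the log2 scale (adjusted p = 1.48e-05). Its relative Cd6 fell by 0.43 ± 0.05 and was apart at every dose. Costimulatory receptors had 5 of 14 higher, led by Tnfrsf8, the receptor CD30 (0.99 ± 0.16), and Tnfrsf4, the receptor OX40 (0.77 ± 0.16), and 1 lower, Cd2 (-0.21 ± 0.06). Inhibitory receptors and exhaustion factors had 1 of 17 higher (Pdcd1lg2) and 3 lower (Pdcd1, Nt5e and Cd101). Without the 10 µM samples the inhibitory list had 0 higher and 1 lower. The costimulatory list had 2 higher and 0 lower without a dose term. The calls of Cd2 and Pdcd1lg2 were each lost without any of 7 single samples.

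Effector cytokines had 4 of 18 higher (Csf2, Il10, Fasl and Il24) and 3 lower (Tnfsf10, Xcl1 and Ccl3). Without the 0 µM samples these counts were 1 and 0. Ccl3 lost its call without any of 12 single samples and Il10 without replicate 3 of the Nur77 guide at 50 µM. Of genes induced by interferon gamma 3 of 22 were higher, Gbp4, Gbp10 and Tgtp1, but 1 without a dose term. Of type I interferon genes 2 of 40 were higher and 2 lower. The type I counts lie near the 3.24% and 1.74% of all tested genes and show nothing particular to that list. STAT5 targets and common gamma chain receptors had 2 of 20 higher and 3 lower. Targets of ATF4, the factor of the amino acid response, had 6 of 42 higher and 0 lower, with Stc2 (0.65 ± 0.09) first. The ATF4 count was 2 without the 0 µM samples and 3 without the 10 µM samples. Of 28 tested p53 targets only Cdkn1a, the cell cycle inhibitor p21, was called. It lay at 129, 162 and 222 CPM with the scrambled guide and at 209, 241 and 505 CPM with the Nur77 guide, a log2 fold change of 0.65 ± 0.12 (adjusted p = 0.00258). Neither edgeR nor DESeq2 called a member among 24 DNA repair, 30 mitosis, 36 DNA replication, 26 histone and 51 ribosomal protein genes, of which 2, 4, 2, 4 and 4 had an unadjusted p under 0.05. In the remaining lists 1 member was called: H2-Q6 of MHC class I presentation, Bcl2a1b of the Bcl2 family and Klrc1 of the killer lectin-like receptors, Scap of cholesterol synthesis, which fell, and Hsph1 of heat shock, which fell but lost its call without any of 13 single samples.

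Of 16 tested myeloid markers 6 were lower with the Nur77 guide (Lyz2, Csf1r, Ngp, Elane, Fcgr3 and H2-Aa) and 0 higher, with a median log2 fold change of -0.90. Lyz2, lysozyme of macrophages and neutrophils (chromosome 10, 117277541 to 117282272), lay at 22.8, 33.9 and 40.3 CPM with the scrambled guide and at 5.87, 8.11 and 13.8 CPM with the Nur77 guide. All 9 samples were below the other 9, with a log2 fold change of -1.76 ± 0.14 (adjusted p = 1.38e-11). Of the genes tested without the 0 µM samples, 2 myeloid markers were lower. Single samples left out ended the call of Ngp (9 of 18 samples), Elane (6) and Fcgr3 (6). Of 29 listed, 0 had no count in every sample. The summed myeloid level was 144 to 193 CPM with the scrambled guide and 106 to 211 CPM with the Nur77 guide. It was 161 to 193 against 113 to 123 CPM at 0 µM and 144 to 170 against 114 to 131 CPM at 10 µM, while at 50 µM the guides overlapped, with 153 to 181 against 106 to 211 CPM. Levels also overlapped for the class II genes H2-Ab1 (23.2 to 38 against 28.8 to 41.1 CPM) and Cd74 (42 to 59.4 against 39.6 to 118 CPM), and neither was called. Without replicate 1 of the Nur77 guide at 50 µM Cd74 was called lower (-0.23, adjusted p = 0.0403), and without replicate 3 of the scrambled guide at 10 µM H2-Ab1 was called higher (0.32, adjusted p = 0.0368). Defining markers were low in both: Csf1r, the receptor of macrophage growth factor, had at most 5.87 CPM and a median of 2.41 CPM with the scrambled guide against 0.447 CPM. Other genes of myeloid cells among those lower at every dose or with overlap were Slamf8, Ctsh, Alox5, Clec4n, Cybb and Fcer1g, chosen after their values were seen. This choice took only genes that fell. Axl, Lilr4b and Lilrb4a, which myeloid cells also express, were apart and higher at every dose. Axl, for example, lay at 17.6 to 27.4 CPM with the scrambled guide and at 37.1 to 49.2 CPM with the Nur77 guide. Ctss, a cathepsin, fell by 0.50 ± 0.06.

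Red cell and platelet markers had 0 of 5 tested members called by edgeR and 2 by DESeq2, and 5 had an unadjusted p under 0.05. Their median was -1.89 and their summed level 20.7 to 71.9 CPM against 9.22 to 30.1 CPM. In bulk samples fewer cells of a type and less RNA per cell cannot be told apart. The part of other cells in the lower genes was not tested. Of stromal and endothelial markers 2 of 3 tested were lower (Pecam1, and Vwf, lost without any of 9 single samples), of NK and gamma delta T markers 1 of 4 (Fcer1g), and of B cell (1 tested), CD4 T cell (4 tested) and sex-linked genes (4 tested) 0 were called by edgeR or DESeq2, with 0, 2 and 0 at an unadjusted p under 0.05.

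The genes apart at every dose are not all separate measurements. A group of them belongs to the gamma protocadherin cluster on chromosome 18, whose transcripts for adhesion proteins share their 3′ exons. All 22 of its members were tested and 9 were apart, with log2 fold changes from 0.69 to 0.84. Their levels over the samples had a median r of 0.98 between members, and reads of shared exons cannot be assigned to a single member. Of the 111 higher genes 15 lie in overlapping groups, and merging these leaves 99 loci; the 56 lower genes stay 56. H2-Q6 and H2-Q8, and Lilrb4a and Lilr4b, are close copies between which reads may be split. Chromosome 18 held 16 of the 167, of 303 genes tested there (5.281%), and the other chromosomes with over 100 tested genes from 0.545% to 2.071%.

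Some genes with large differences overlapped between the guides at a dose or more and so stayed outside the class. H2-Q10, a nonclassical class I gene, lay at 3.16, 5.08 and 10.7 CPM with the scrambled guide and at 4.05, 16.2 and 25.6 CPM with the Nur77 guide (1.64 ± 0.18, adjusted p = 2.58e-08). Bst1, Sema6d, Gzmc and Nov had log2 fold changes of 1.63, 1.14, 1.03 and 1.00. Clec4n (-1.65), Tspan32 (-1.33), Cybb (-1.22), Napsa (-0.95) and Fcer1g (-0.94) were the lowest of this kind. At the other edge of the class, 6 genes were apart at every dose without being called.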

How the data were processed

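The authors deposited raw counts per gene symbol, not normalized, in 1 table of 18 libraries. Per the submitters' processing notes, STAR, HOMER, DESeq2 and the builds GRCm38 and mm10 were used; versions, roles and strandedness are not given in the sources used here. Every column was matched to its sample by the description label. Genes were filtered by group (filterByExpr), leaving 11651 of 24537, and scaled by TMM in edgeR 4.0.16 (R 4.3.3). The pooled guide effect came from the quasi-likelihood test in a model of dose plus guide, and per-dose effects and the interaction from a model of 6 group means. P-values were adjusted by Benjamini-Hochberg over all genes tested, and called means an adjusted p under 0.05. CPM use TMM-scaled library sizes. Principal components used log2 CPM (prior count 2). The code was tested on simulated data.

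Named genes were the Nr4a family, the 15 highest and 15 lowest apart at every dose (mean CPM at least 5, no predicted genes), 5 each way called with overlap, the 5 smallest interaction p-values, up to 3 called members a list each way and neighbours of Nr4a1. A list with no called member gave its most abundant genes. Some genes under this rule are not reported here. Genes outside this rule were chosen after their values were seen. The members and lists were chosen with earlier results of these data known. Gene positions and promoters come from RefSeq (GRCm38.p6), to which 24428 symbols matched. The motif ACGTG was chosen after seeing the data. Alternatives were DESeq2 1.42.0, limma-voom (limma 3.58.1), other filters and size factors, a replicate block, a background covariate, glmTreat at a log2 fold change of 0.5, no dose term, and doses or samples left out. Leaving out the highest-background sample of each guide at 50 µM, or Rn45s and Lars2, was chosen after seeing the data.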

Additional observations from a re-analysis of the deposited data

How the results depend on the processing

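Of 166 genes of the text followed through the alternatives, 140 were called, and none of these changed sign under any alternative. Leaving out single samples ended the call of 18 of them, each named with its result above; the highest adjusted p was 0.159, for Ccl3. Of 98 called genes named by the rule, 25 kept the call throughout and 29 lost it only in the test with a log2 fold change threshold of 0.5, which called 22 higher and 12 lower genes and left 19 and 9 apart at every dose. DESeq2 kept 579 of the 581 calls and 165 of the 167 genes apart at every dose. Without a dose term 205 genes were higher and 109 lower. Without the 0 µM samples there were 206 and 86, and without the 10 µM samples 220 and 134; these fits have fewer samples. Without the 50 µM samples, where fewer doses had to separate, 189 and 109 genes were apart. Without the highest-background sample of each guide at 50 µM, where fewer samples had to separate, 171 higher genes were apart. The interaction called 2 genes in DESeq2 and 9 with no filter, where 56 genes were called at every dose; the cause was not tested. Leaving out single samples gave 324 to 391 higher and 164 to 234 lower calls, 14 to 63 called at every dose and 0 to 8 for the interaction. It left 117 to 163 higher and 53 to 71 lower genes apart, again with fewer samples that had to separate. With the replicate number as a block there were 372 higher and 196 lower genes, 111 and 55 apart, 0 for the interaction and 28 called at every dose. No pairing by replicate number was seen: of 45 same-numbered pairs the deviations correlated at most at 0.088, and 6 of 18 samples correlated best with their own number. With 3 samples in a group, such weak correlations cannot exclude that same-numbered samples share an origin. Of 51 genes that the rule named and that were not called, 19 changed sign in a setting. Of the 166 genes followed, those that changed sign were Nr4a2, Cox7a2, Thbs1, Car9, Ifitm1, Pdk1 and Cd74, none of them called in a setting where the sign changed. Of the 26 uncalled genes among the 166, 11 were called under an alternative. Cox7a2 was called without the 50 µM samples (-0.2097, adjusted p = 0.01532). Without the 0 µM samples the log2 fold changes were -0.03418 (Nr4a2), 0.02449 (Cox7a2), -0.006855 (Ifitm1) and 0.04497 (Cd74). Without the 10 µM samples they were 0.07998 (Cox7a2), -0.002925 (Pdk1) and 0.06282 (Cd74), and without the 50 µM samples -0.09723 (Thbs1), 0.4336 (Car9) and -0.02439 (Ifitm1). Ifitm1 had -0.01541 and Cd74 0.0143 with the background covariate and Car9 0.0175 with limma-voom. Without the highest-background samples Car9 had 0.0793 and Pdk1 -0.005649. Over single samples left out, the ranges were -0.01708 to 0.1643 (Nr4a2), -0.07419 to 0.009001 (Cox7a2), -0.3342 to 0.1129 (Car9), -0.03252 to 0.1183 (Ifitm1), -0.008779 to 0.02783 (Pdk1) and -0.2278 to 0.02725 (Cd74). The cause was not tested. Depth limits genes of few counts, such as Nr4a1.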
